A study of Arabidopsis thaliana with 6 samples.

Results

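LUMINIDEPENDENS (LD, AT4G02560) and FY (AT5G13480) are genes of the autonomous flowering pathway of Arabidopsis thaliana. They were taken as the probe sets that list 1 gene with the symbol LD or FY. Each had 1 such probe set (255444_at for LD, 245848_at for FY), so the members are 2 of the 22746 probe sets tested. RNA of whole seedlings was hybridised to Affymetrix ATH1 arrays, with 3 arrays of the yaf9a yaf9b double mutant and 3 arrays of wild type (WT), each array from an independent biological replicate. Both genotypes were in the Col-0 background and were 20 days old. They had been grown on agar plates in short days and were collected at ZT8, the end of the light period, with no treatment. The labels give neither the alleles of yaf9a and yaf9b nor the number of plants pooled in a sample of seedlings.

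Genes of the autonomous pathway promote flowering by keeping the floral repressor gene FLC low, largely independently of day length. LD encodes a nuclear protein with a homeodomain, and ld mutants flower late unless they are vernalised. FY encodes a WD40-repeat protein related to the yeast 3' end processing factor Pfs2p. It acts with the RNA-binding protein FCA at the poly(A) sites of FLC-locus transcripts. YAF9A and YAF9B are shared subunits of NuA4, which acetylates histones, and of SWR1, which exchanges H2A for H2A.Z, a variant found at FLC and at many other genes.

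LD had a lower signal and FY a higher signal in yaf9a yaf9b than in WT, both by small amounts, and neither passed the test. LD was 1.19-fold lower and FY 1.14-fold higher in the mutant. Over the whole array 2985 of 22746 probe sets passed limma's test at an adjusted p under 0.05, which is 13.1% of them, and the count over the members was 0 of 2. At an unadjusted p under 0.05, 27.8% of all probe sets passed, and so did LD but not FY. In 13 other settings of the fit, described below, LD did so in 5 (unadjusted limma p from 0.0152 to 0.153) and FY in 0.

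LD had signals of 6.37, 6.11 and 6.34 in yaf9a yaf9b arrays 1, 2 and 3, against 6.46, 6.49 and 6.61 in WT arrays 1, 2 and 3 (log2 signal here and below). Every mutant array lay below every WT array, and array 2 of the mutant was the lowest of the 6. The gap between the highest mutant array and the lowest WT array was 0.09, less than the spread within the mutant, which was 0.26. Genotypes without overlap were common on these arrays, since 31.6% of all probe sets had them and 15.9% had them with the mutant lower. On a linear scale the mutant arrays stood at 0.901, 0.753 and 0.883 of the WT mean, and the WT arrays at 0.959, 0.979 and 1.06 of it.

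LD averaged 6.27 ± 0.142 in yaf9a yaf9b and 6.52 ± 0.079 in WT (SD, n = 3 arrays each). The difference, mutant minus WT, was -0.25 on the log2 scale with an SE of 0.1 and a limma adjusted p of 0.155 (unadjusted 0.0395). The unadjusted 95% interval ran from -0.48 to -0.02, which as mutant over WT is a ratio of 0.718 to 0.99. The interval therefore holds differences near nil as well as a fall to 0.718 of the WT level. An exact two-sided permutation test over the 6 arrays gave p = 0.1, which is the smallest p that 3 arrays against 3 allow.

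FY had signals of 6.70, 6.59 and 6.51 in yaf9a yaf9b arrays 1, 2 and 3, against 6.47, 6.19 and 6.57 in WT arrays 1, 2 and 3. The genotypes overlapped, because WT array 3 lay above mutant array 3. WT array 2 was the lowest of the 6, and the WT arrays spread over 0.38, against 0.19 for the mutant arrays. On a linear scale the mutant arrays stood at 1.22, 1.13 and 1.07 of the WT mean, and the WT arrays at 1.04, 0.859 and 1.12 of it.

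**Figure D1:**
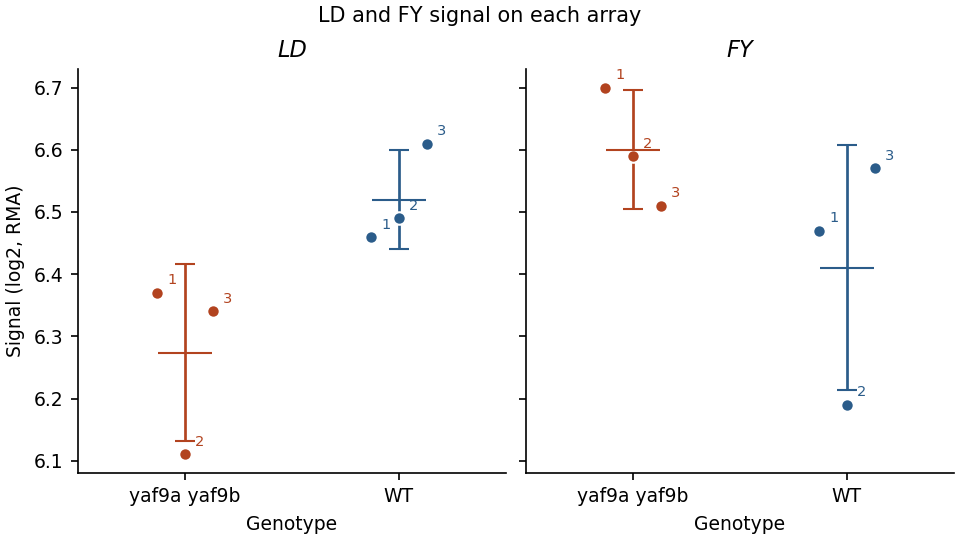
Signal of LD (left) and FY (right) on each array, on the log2 scale of the deposited RMA values, with yaf9a yaf9b left of WT. Points are arrays with their replicate numbers, and bars are the mean and SD of 3 arrays. The LD arrays of the mutant all lie below those of WT by at least 0.09, and the FY arrays overlap.

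FY averaged 6.60 ± 0.095 in yaf9a yaf9b and 6.41 ± 0.197 in WT (SD, n = 3 arrays each). The difference was 0.19 with an SE of 0.117 and a limma adjusted p of 0.347 (unadjusted 0.142). Its unadjusted 95% interval, from -0.08 to 0.46, included 0 and corresponds to a mutant over WT ratio of 0.947 to 1.38. The exact two-sided permutation test gave p = 0.2. Without WT array 2 the difference was 0.08, so its size depended on that 1 low WT array. The size of the LD difference likewise depended on its lowest array, being -0.16 without mutant array 2 (limma adjusted p = 0.423). Both genes kept their direction without each array in turn, LD between -0.3 and -0.16 and FY between 0.08 and 0.27.

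The median absolute difference over all probe sets was 0.14, below those of LD and FY. Of all probe sets, 30.3% had a larger absolute difference than LD and 40% a larger one than FY. Few differences of this size passed the test on these arrays. Of the 1631 probe sets that lay between -0.3 and -0.2, as LD did, 5 passed the adjusted threshold. Of the 2916 between 0.1 and 0.2, as FY was, 0 passed.

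The within-genotype SD was 0.115 for LD and 0.155 for FY, against a median of 0.131 over all probe sets. LD was thus somewhat less variable than the typical probe set and FY somewhat more. With their SEs, LD would have passed at a difference of at least 0.37 on the log2 scale (1.29-fold) and FY at 0.43 (1.34-fold). Smaller observed differences would not have passed at these SEs, so a change of either transcript could have gone undetected with 6 arrays. In whole seedlings, fewer cells that express a gene and less RNA per cell cannot be told apart.

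**Figure D2:**
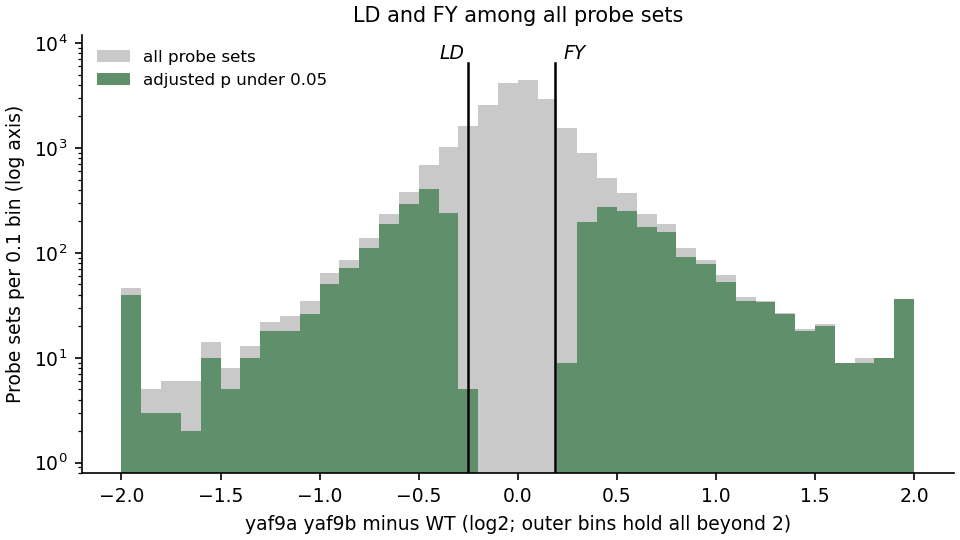
Number of probe sets per bin of 0.1 (vertical axis, logarithmic) by the difference yaf9a yaf9b minus WT (horizontal axis, log2). Grey bars are all 22746 probe sets and green bars those with an adjusted p under 0.05; vertical lines mark LD at -0.25 and FY at 0.19, where few or none passed.

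Neither gene passed under any of 13 other settings of the fit. For LD the difference stayed negative, from -0.3 to -0.16, with a limma adjusted p from 0.0692 to 0.423. The lowest came with array quality weights, which give less weight to arrays that deviate from the others. For FY it stayed positive, from 0.08 to 0.27, with a limma adjusted p from 0.198 to 0.712.

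**Figure D3:**
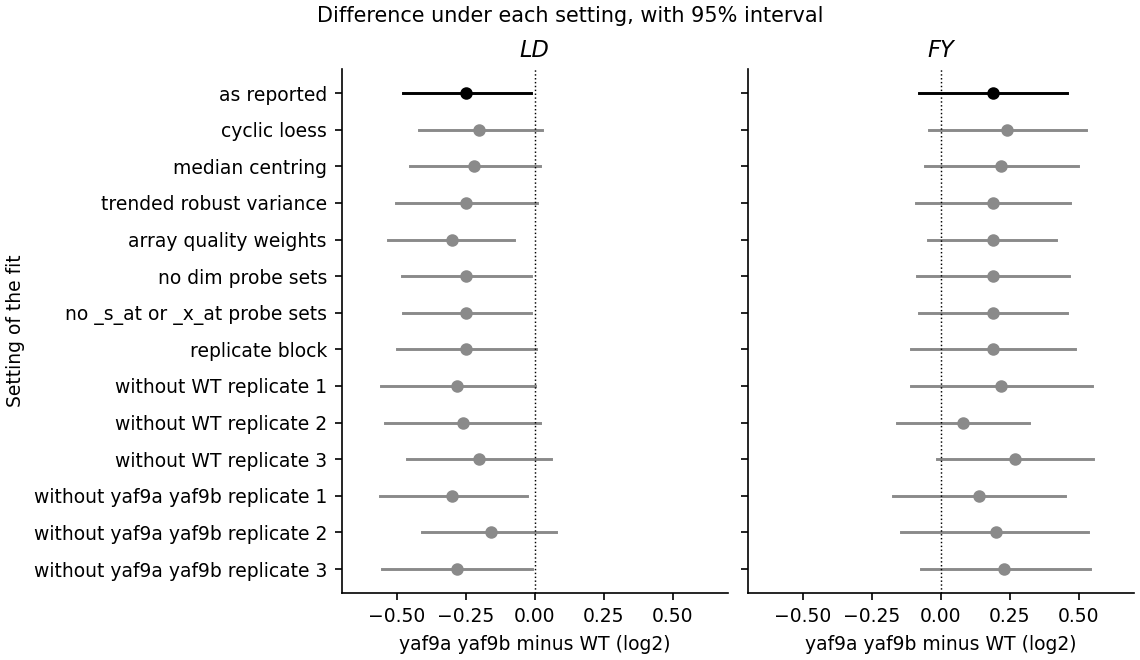
Difference yaf9a yaf9b minus WT (horizontal axis, log2) for LD (left) and FY (right) under each setting of the fit (vertical axis). Points are differences and lines their unadjusted 95% intervals, in black for the values reported in the text; LD stays between -0.3 and -0.16 and FY between 0.08 and 0.27.

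Of the 4 other measured genes listed for the autonomous pathway, 1 rose and the rest did not pass. The list holds members and partners of the pathway and also PEP, which acts against it. Of 27 genes listed, 6 had a probe set that the annotation used lists under them alone, LD and FY included. Among these 6, 1 rose and 0 fell, where 6.52% of all probe sets rose and 6.61% fell. At an unadjusted p under 0.05, 3 of the 6 passed, against 27.8% of all probe sets. The median difference of the 6 was 0.07, against 0.007 over all probe sets. FCA, FPA, FVE, FLD and FLK, the other classical members of the pathway, were not analysed here.

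PEP (PEPPER, AT4G26000) encodes a KH-domain RNA-binding protein that promotes FLC expression, against the action of the autonomous pathway. Its signal was 7.23, 7.38 and 7.42 in yaf9a yaf9b, against 7.58, 7.65 and 7.70 in WT. All mutant arrays lay below all WT arrays, as for LD, and the difference of -0.30 ± 0.089 (log2 ± SE) did not pass (limma adjusted p = 0.0646). LDL2 (AT3G13682), which encodes a homologue of the human histone demethylase LSD1, averaged 4.37 in each genotype. NDX (AT4G03090), a homeobox gene whose product binds the 3' end of FLC, had a difference of 0.15 ± 0.119 (limma adjusted p = 0.476). It averaged 5.01 in yaf9a yaf9b and 4.86 in WT. LDL2 and NDX lay below a mean signal of 5.09, the cut under which an alternative fit left out dim probe sets. Whether such dim genes were expressed was not tested.

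The 1 gene of this list that rose, AT5G14530, entered it by its locus, and the RefSeq table holds no name for it. Its signal was 7.30, 7.47 and 7.58 in yaf9a yaf9b, against 7.05, 6.97 and 6.99 in WT. The arrays of the genotypes were well separated, and the difference was 0.45 ± 0.096 (limma adjusted p = 0.0221). The call ended when any array except mutant array 1 was left out (adjusted p 0.0504 to 0.0914), while the difference stayed between 0.38 and 0.52.

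The machinery that cleaves and polyadenylates pre-mRNA, to which FY belongs, was represented by 6 of 27 listed genes. Besides FY these entered the list by locus and are given by locus only, since the RefSeq table holds no name for them. Of the 6, 0 rose and 1 fell, where 6.52% of all probe sets rose and 6.61% fell. Their median difference was -0.01. AT5G10350 fell, with 7.82, 7.85 and 7.99 in yaf9a yaf9b, against 8.19, 8.29 and 8.17 in WT (difference -0.33 ± 0.088, limma adjusted p = 0.0456). That call ended when any array except mutant array 3 was left out (adjusted p 0.0686 to 0.16), and the same held when each array was centred on its median (adjusted p = 0.07).

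AT4G25550 had 8.98, 9.03 and 9.06 in yaf9a yaf9b, against 8.55, 8.47 and 8.88 in WT. Its genotypes did not overlap, but the difference of 0.39 ± 0.117 did not pass (limma adjusted p = 0.0671). It passed with a trended variance model, with array weights and without WT array 3 (adjusted p 0.0458, 0.0209 and 0.0202). The remaining 3, AT3G66652, AT5G60940 and AT5G65260, had differences of -0.18, -0.03 and 0.01 with overlapping genotypes. FY was thus 1 of 4 genes in this list whose genotypes overlapped. The other 2 of the 6 had genotypes without overlap, against 31.6% of all probe sets. AT3G66652 averaged 3.69 in yaf9a yaf9b and 3.87 in WT, below the dim cut of 5.09.

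Besides PEP, few of the genes that act on FLC from the other side were measured. Of 23 listed activators of FLC (the FRIGIDA and PAF1 complexes and the histone methylation and ubiquitination enzymes), 2 were measured and 0 passed. Over all probe sets 13.1% passed. RBL (AT3G21060), which encodes a homologue of the human H3K4 methyltransferase subunit RbBP5, had a difference of -0.08 ± 0.108. AT2G30120, which has no name in the RefSeq table, had 3.81, 4.1 and 3.88 in yaf9a yaf9b, against 4.26, 4.31 and 4.23 in WT. Its genotypes did not overlap and its difference of -0.34 ± 0.099 did not pass (limma adjusted p = 0.0618). All its signals lay below the dim cut of 5.09. Of 20 listed genes of the FLC clade and of Polycomb repression, 0 had a probe set listed under their locus alone in the annotation used, so FLC itself was not analysed here.

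Of 15 listed genes of floral integration and meristem identity, some of which act independently of FLC, 5 were measured and 1 rose. The share over all probe sets that rose was 6.52%. AGL24, which encodes a MADS-box promoter of flowering, had 5.59, 5.58 and 5.85 in yaf9a yaf9b, against 4.98, 5.04 and 4.97 in WT (difference 0.68 ± 0.099, limma adjusted p = 0.00561). FD, which encodes the bZIP partner of the florigen FT, had a difference of 0.03, and the MADS-box gene AGL19 had -0.04. FD averaged 3.79 in yaf9a yaf9b and 3.76 in WT, and AGL19 averaged 3.42 and 3.46. Both lay below the dim cut of 5.09, and whether they were expressed was not tested. SMZ and SNZ, which encode AP2-like repressors of flowering, had -0.07 and 0.00. These 4 had overlapping genotypes, where 31.6% of all probe sets had genotypes without overlap.

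Over the 5 lists together, 18 of 110 genes were measured, of which 2 rose and 1 fell. These counts stand beside the 13.1% of all probe sets that passed in either direction. In 7 of the 18 the genotypes did not overlap, LD among them and FY not, against 31.6% of all probe sets. The median difference of the 18 was -0.02. The dim genes named above are among the 18. The count of 3 changed genes was 1 without WT array 1, without WT array 2 or without mutant array 2.

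**Figure D4:**
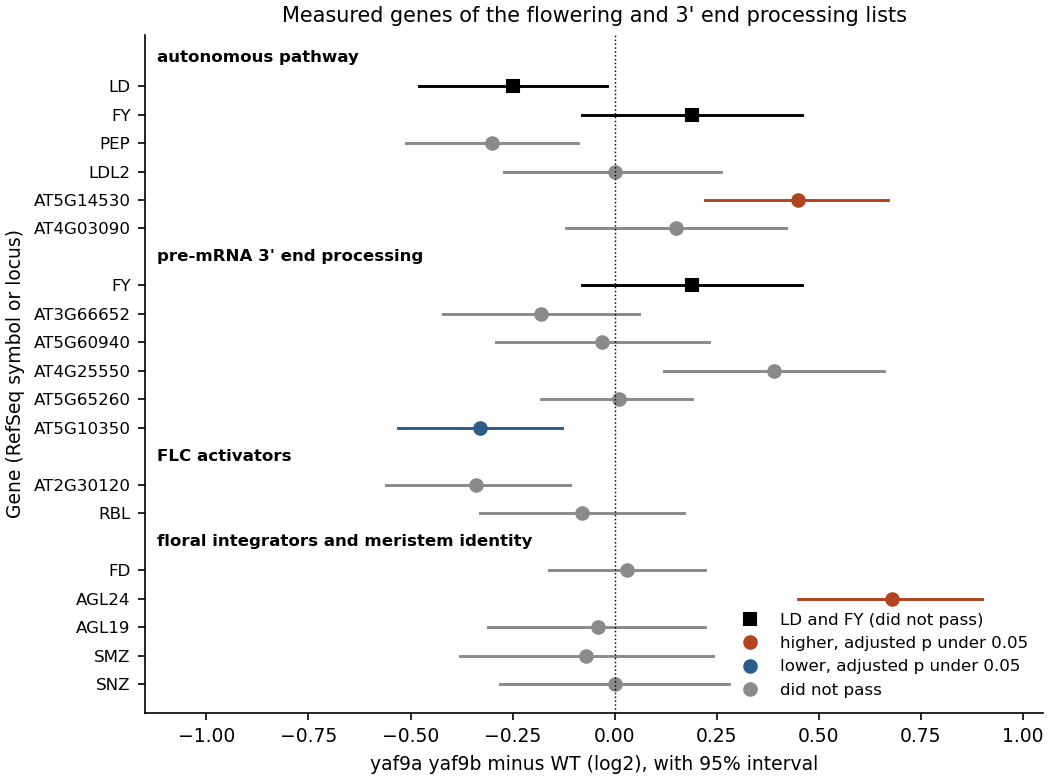
Difference yaf9a yaf9b minus WT (horizontal axis, log2, with unadjusted 95% intervals) for each measured gene of 4 lists (vertical axis). Squares mark LD and FY, which did not pass; red marks the genes that rose (AT5G14530 and AGL24), blue the gene that fell (AT5G10350) and grey the others.

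The closest measured neighbours of LD and FY on their chromosomes were compared next. Among the 5 annotated entries on either side of LD in the RefSeq table, 3 genes had a probe set of their own. AT4G02540, the fifth entry before LD, had 7.97, 8.17 and 8.19 in yaf9a yaf9b, against 7.56, 7.52 and 7.54 in WT. It rose by 0.57 ± 0.091 (limma adjusted p = 0.0079), opposite in sign to the difference of LD, and kept the call in all 13 other settings. For comparison, 6.52% of all probe sets rose. AT4G02550 averaged 6.29 in each genotype, and AT4G02580 had a difference of 0.20 ± 0.113 with overlapping genotypes.

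Around FY, 2 neighbours were measured, and neither passed, where 13.1% of all probe sets did. AT5G13470 had a difference of -0.09 ± 0.114. AT5G13500 had 7.53, 7.46 and 7.26 in yaf9a yaf9b, against 7.66, 7.53 and 7.95 in WT, a difference of -0.30 ± 0.129 (limma adjusted p = 0.181). Mutant array 1 equalled WT array 2 there, so the genotypes met.

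Genes whose pattern over the 6 arrays was most like that of LD or FY were found by Pearson correlation with 13435 other probe sets that list 1 gene. A correlation over 6 arrays that fall into 2 genotypes is a description, and some high values arise among so many probe sets. For LD, 44 had r above 0.95 and 37 had r below -0.95. For FY these counts were 82 and 94.

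The 5 most like LD were AT1G76380 (r = 0.999), AT3G13270 (0.992), AT5G46460 (0.992), AT2G39170 (0.989) and AT1G47765 (0.982). Being chosen for their likeness, all 5 had, as LD did, their lowest signal in mutant array 2 and their highest in WT array 3. For the same reason their genotypes did not overlap, where 15.9% of all probe sets had the mutant lower without overlap. Leaving out 1 array left r at 0.954 or above for each. Of the 5 only 1 passed, where 6.61% of all probe sets fell. This was AT5G46460, with 4.11, 3.66 and 4.05 in yaf9a yaf9b, against 4.34, 4.47 and 4.65 in WT (difference -0.55 ± 0.14, limma adjusted p = 0.0398). Its call ended without any 1 of the WT arrays or mutant array 2 (adjusted p 0.0563 to 0.114). The differences of the other 4 ran from -0.38 to -0.14. AT5G46460, AT3G13270 and AT1G47765 averaged below the dim cut of 5.09 in both genotypes. Whether their likeness to LD reflects expression or background signal was not tested.

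The 5 most like FY were AT5G59170 (r = 0.996), AT2G18480 (0.995), AT1G12570 (0.995), AT5G59940 (0.993) and AT2G14160 (0.993). Chosen in the same way, all 5 had, as FY did, their lowest signal in WT array 2, their highest in mutant array 1 and overlapping genotypes. Over all probe sets 31.6% had genotypes without overlap. None of the 5 passed, where 13.1% of all probe sets did, and their differences ran from 0.11 to 0.32. AT5G59170 had the widest swing, with 6.83, 6.61 and 6.45 in yaf9a yaf9b, against 6.45, 5.87 and 6.62 in WT. Leaving out 1 array left r at 0.969 or above for each. All except AT5G59170 averaged below the dim cut of 5.09 in both genotypes. Whether their likeness to FY reflects expression or background signal was not tested.

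**Figure D5:**
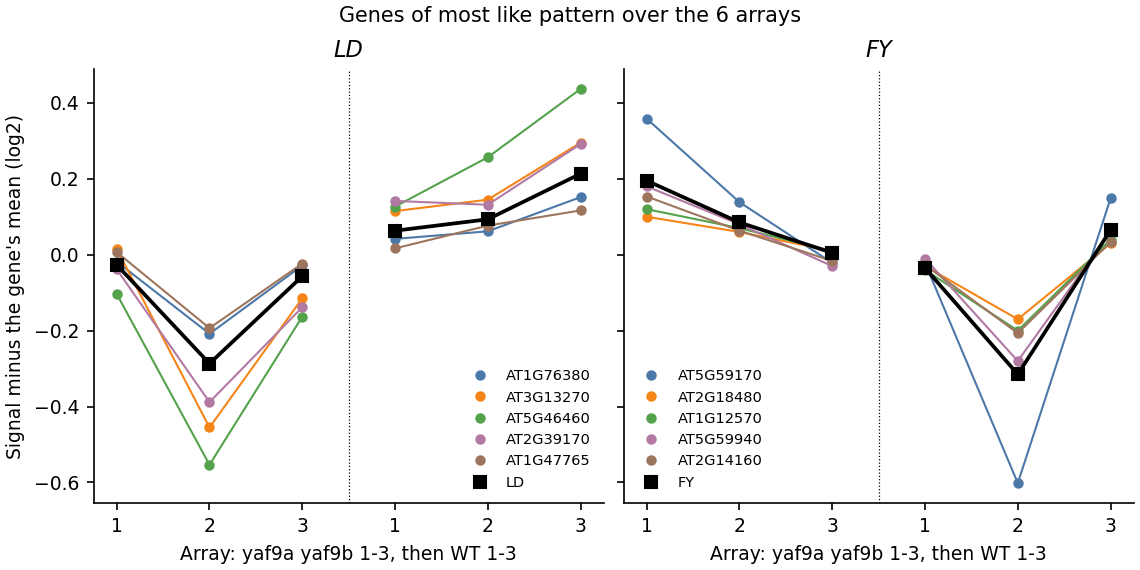
Signal minus each gene's own mean over the 6 arrays (vertical axis, log2) for LD (left) and FY (right) in black and the 5 probe sets of highest Pearson correlation with each in colour. Of the coloured probe sets, only those of AT1G76380, AT2G39170 and AT5G59170 averaged above the dim cut of 5.09. Arrays run from yaf9a yaf9b 1 to 3 and then WT 1 to 3 (lines only link points of 1 gene); mutant array 2 is lowest for LD and its 5, and WT array 2 is lowest for FY and its 5.

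Array medians lay between 5.99 and 6.06 after RMA, which equalises the arrays' distributions. The correlation across probe sets was 0.989 to 0.996 within genotypes and 0.98 to 0.987 between them. The arrays did not weigh equally on the count that passed, which was 963 without mutant array 2 and 2684 without mutant array 3. YAF9A, YAF9B and FLC were not analysed here, so the genotype labels were not checked against the targeted transcripts. As markers of tissues, 3 of 5 listed root genes and 3 of 7 listed genes of green tissue were measured. Of 5 listed inflorescence genes, 0 were measured. Of the root genes 0 passed, against 13.1% of all probe sets, with differences from -0.15 to 0.07. The root genes EXPA18 and EXPA7 averaged below the dim cut of 5.09 in both genotypes. Of the green tissue genes the antenna protein gene LHCB4.2 fell (difference -0.33 ± 0.088, limma adjusted p = 0.0434), where 6.61% of all probe sets fell. The other 2 had -0.07 and 0.06. Leaving out any 1 array ended the LHCB4.2 call (adjusted p 0.0521 to 0.158), as did centring each array on its median (0.0631).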

How the data were processed

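The deposited values are log2 signals with 1 column per array. They were made with RMA and the affy package, per the submitters' processing notes; the sources used here give no versions. RMA equalises the arrays' distributions, which hides any shift common to most transcripts. The number of arrays limits the precision. Of 22810 probe sets, 64 controls were left out and 22746 were tested in R 4.3.3 with limma 3.58.1 (a linear model with genotype as the only term, moderated by eBayes, two-sided, mutant minus WT, without a filter), with Benjamini-Hochberg adjustment over all of them and a threshold of 0.05. The script was tested on simulated data. Exact permutation tests used SciPy 1.17.1.

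Names came from GEO's platform annotation through the RefSeq table of TAIR10.1: 13513 listed 1 gene, of which 13436 matched, 503 several and 8730 none. The files name no genome build, so no coordinates are given. Every measured gene of the flowering and 3' end processing lists had 1 probe set and is named, as are the 5 most correlated with LD and with FY and the measured neighbours within 5 entries. The members and lists were chosen with earlier results of these data known. Families by RefSeq description could not be formed, because the table has no descriptions. The labels call the replicates independent. Replicate numbers were not taken to pair arrays across genotypes. The labels give no scan dates, so a batch that followed genotype cannot be told apart from it. Alternatives were cyclic loess, median centring, a trended robust variance, weights for array quality, leaving out probe sets under the 40th percentile of mean signal or with the suffix _s_at or _x_at, the replicate number as a block, and leaving out each array.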

Additional observations from a re-analysis of the deposited data

How the results depend on the processing

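The LD and FY differences kept their direction and stayed short of the threshold in all 13 alternatives, with leave-one-out ranges of -0.3 to -0.16 and 0.08 to 0.27. With a replicate block the limma adjusted p was 0.213 for LD and 0.402 for FY. The block gave 1233 changed probe sets in place of 2985, and 1 changed gene in the lists in place of 3. It ended the calls of AT5G14530, AT5G10350, AT5G46460 and LHCB4.2 (adjusted p 0.074, 0.119, 0.0788 and 0.121) and no other call named. After removal of each genotype mean, arrays sharing a number had correlations of -0.212, 0.01 and -0.322, and of the 6 arrays 0 correlated best with the array of their own number. Leaving out 1 array gave 963 to 2684 changed probe sets (557 to 1401 higher, 406 to 1283 lower) and 1 to 2 changed genes in the lists, each fit having fewer arrays. Array weights gave 2298 lower probe sets in place of 1503, and the cause was not tested. After median centring 1636 were higher and 1251 lower, against 1482 and 1503. Of 32 other named genes, 6 had passed. AGL24 and AT4G02540 kept the call in every alternative, and 0 of the 6 reversed. Of the 26 that had not passed, 4 passed in at least 1 alternative. These were AT4G25550 (described above), PEP without dim probe sets (adjusted p = 0.0484), AT3G13270 with array weights (0.0444) and AT2G39170 under both (0.0498 and 0.0264). Differences near 0 changed sign in 9 of the 26, and the cause was not tested. With cyclic loess AT5G60940 had 0.02 and AT4G02550 0.04. With median centring LDL2 and AT4G02550 had 0.03 each. With array weights AT5G65260 had -0.01 and SNZ -0.07. Leaving out 1 array gave -0.1 to 0.11 for LDL2, -0.12 to 0.07 for AT5G60940, -0.03 to 0.04 for AT5G65260, -0.01 to 0.08 for FD, -0.14 to 0.05 for AGL19, -0.18 to 0.06 for SMZ, -0.12 to 0.08 for SNZ, -0.1 to 0.09 for AT4G02550 and -0.17 to 0.01 for AT5G13470. All of these alternatives were planned.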
